A study of Mus musculus with 3 samples.

Results

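The genes Gfi1, Gfi1b, Runx1, Runx3, Myb, Bcl11a, Satb1, Foxo1, Cbfb and Nfil3 encode regulators of the choice between lymphoid and myeloid fates, and their levels were examined in multipotent progenitors (MPPs) from Mef2c mutant and control mice. They are 10 of 27670 genes named on the array, and each was read through all probes for biological targets, not controls, that carry its name. There were 21 such probes, printed at 30 spots, out of 41174 probes at 43379 spots. All 21 were well above background in both groups on every array.

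RUNX proteins bind DNA as a complex with CBFB and are needed both for blood stem cells to form and for lymphoid and megakaryocytic cells to mature. GFI1 and GFI1B are related zinc finger repressors, the first acting in stem cells, granulocytes and lymphocytes and the second in erythroid and megakaryocytic cells. MYB sustains progenitor growth, whereas BCL11A, SATB1, FOXO1 and NFIL3 take part in B, T and natural killer cell development. Mef2c itself encodes a transcription factor of muscle, neurons and lymphoid cells.

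The mutant mice were Mx1-Cre Mef2c fl/fl and the control mice Mef2c fl/fl without Cre, so an effect of Cre itself cannot be told apart from loss of Mef2c. Mice of both genotypes received poly(I:C), which mimics viral RNA and switches on the interferon-driven Mx1 promoter, on 4 consecutive days, and bone marrow was taken 2 days after the last injection. MPPs were sorted as lineage-negative, c-kit-positive and Sca-1-positive cells, 15000 per sample, a gate that as stated also holds stem cells. Mx1-Cre is active in many cell types. Strain and age were not given in the sources used here.

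Each of 3 two-colour arrays held 1 mutant sample in Cy3 and 1 control sample in Cy5, and array 1 denotes replicate 1 and so on. Values are log2 signals (levels) or log2 ratios of mutant over control, and the number of arrays limits their precision. Whether replicates came from separate mice is not stated in the labels. The p-values therefore cover only how these samples spread, and that spread may be technical. The direction of array 2 is not settled. In the authors' deposited table its ratios run opposite to those of arrays 1 and 3, with correlations to the scanner's Cy5 over Cy3 ratio of 0.935 on array 2 and -0.947 and -0.939 on arrays 1 and 3. Signed values below follow the labelled dyes. With these, group and dye coincide on every array, so a dye effect at a probe cannot be told apart from a group difference. If array 2 was a dye swap, its mutant and control levels change places, and the mean with array 2 turned is given for that reason.

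All 7 sort and progenitor markers listed, Kit and Ly6a (Sca-1) among them, were well above background in all 6 samples. Their mean log2 ratios included -0.36 for Kit, 0.82 for Ly6a, 1.16 for the stem cell marker Slamf1 and -1.15 for Flt3. The last 3 had an unadjusted limma p under 0.05, as did 9.14% of all probes. Their groups did not overlap, which also held for 17.4% of all probes. None of the 7 markers had a limma adjusted p under 0.05, and that of Ly6a, Slamf1 and Flt3 was 0.544. Turning array 2 gave means of 0.07 for Kit, 0.48 for Ly6a, -0.36 for Slamf1 and -0.32 for Flt3, and the part of the makeup of the sorted cells in the results below was not tested. The control sample of array 1 stood apart from the other samples. The 10 immediate early genes listed averaged a log2 signal of 10.46, 11.64 and 11.24 in the mutants, against 15.57, 12.32 and 11.34 in the controls of arrays 1, 2 and 3. The 8 late neutrophil markers listed averaged 10.06, 10.26 and 9.39 in the mutants, against 13.07, 9.97 and 10.07 in the controls. Mef2c itself gave log2 ratios of 0.08, 0.10 and -0.96 at its brighter probe. Its dimmer probe, for AK044643, had 1.07, 0.22 and 0.28, and 2 mutant samples and 1 control sample were well above background there. Neither probe passed, and neither was low in all mutants. Whether they lie in the deleted part is not stated in the labels, so the groups are named here by their labels.

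For Satb1, Runx1, Runx3 and Gfi1b, the DNA just upstream of the most distal annotated start is shown from RefSeq (GRCm38.p6). All 10 genes had at least 1 start there. Each sequence is 250 bases long, reads 5′ to 3′ on the gene's strand and ends 1 base before the start. Capitals mark matches, on either strand, to the RUNX motif (TGTGGT or TGCGGT), the GFI1 motif (AAATCA) and the MYB motif (AACNG). Satb1, which ran low in the mutant, lies on chr17:51833291-51833540, minus strand. Runx1 (chr16:92826075-92826324, minus strand) and Runx3 (chr4:135120395-135120644, plus strand) had ratios that varied alike between arrays, in an order also found outside the members. Gfi1b (chr2:28621983-28622232, minus strand) is the relative of Gfi1. Bcl11a, Cbfb, Myb and Nfil3 also come up below for running 1 way or for moving with others. Their sequences are not shown. Of these genes only Nfil3 held any of the motifs, with 1 MYB match.
Satb1: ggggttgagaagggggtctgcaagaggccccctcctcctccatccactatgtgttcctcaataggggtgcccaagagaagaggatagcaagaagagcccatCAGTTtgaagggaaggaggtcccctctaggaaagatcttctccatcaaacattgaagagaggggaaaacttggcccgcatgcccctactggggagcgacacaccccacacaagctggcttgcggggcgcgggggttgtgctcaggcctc
Runx1: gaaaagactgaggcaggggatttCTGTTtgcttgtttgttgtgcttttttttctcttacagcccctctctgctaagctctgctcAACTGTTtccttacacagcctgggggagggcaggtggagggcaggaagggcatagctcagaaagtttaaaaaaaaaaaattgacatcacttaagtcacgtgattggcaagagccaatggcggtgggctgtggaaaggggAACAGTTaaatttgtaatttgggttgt
Runx3: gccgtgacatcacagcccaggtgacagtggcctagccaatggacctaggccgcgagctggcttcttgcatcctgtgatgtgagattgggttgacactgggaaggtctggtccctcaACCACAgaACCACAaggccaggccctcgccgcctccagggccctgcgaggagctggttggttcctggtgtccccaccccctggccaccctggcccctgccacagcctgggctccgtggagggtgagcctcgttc
Gfi1b: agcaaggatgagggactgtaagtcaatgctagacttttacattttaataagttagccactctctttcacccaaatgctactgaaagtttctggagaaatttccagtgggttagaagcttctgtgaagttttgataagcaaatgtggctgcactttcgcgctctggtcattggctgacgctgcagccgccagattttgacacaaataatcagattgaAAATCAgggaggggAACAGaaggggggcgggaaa

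Over the 17 annotated starts of the 10 genes, 1 window, of 1 gene, held the RUNX motif, 4 windows of 2 genes held the GFI1 motif and 10 windows of 6 genes held the MYB motif. Windows of a gene can overlap, and 2 of the Satb1 windows share the same GFI1 match and the same MYB match. Among 32817 promoter windows of the same length the shares were 18.6%, 12.4% and 74.2%. In the Runx3 window the 2 RUNX matches stand side by side, and in the Runx1 window 2 pairs of MYB matches overlap each other. The MEF2 motif, the FOXO motif (GTAAACA) and the NFIL3 motif (TTACGTAA or TTATGTAA) were in 0 of the 17 windows, against 0.509%, 3.16% and 0.929% of all windows. These are letter matches only.

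None of the 21 probes passed the test over all probes. With the dyes as labelled, the lowest mean log2 ratios among them were -0.75 for a Satb1 probe and -0.69 and -0.62 for 2 of the 3 Bcl11a probes, and the highest were 0.55 and 0.49 for the Cbfb probes. The order was another one with array 2 turned, Myb NM_010848 being lowest at -0.72 and the brighter Foxo1 probe highest at 0.69. By limma with Benjamini-Hochberg adjustment, 0 of 32909 probes had an adjusted p under 0.05 (0%), and the smallest adjusted p was 0.544. At an unadjusted p under 0.05 there were 3007 probes (9.14%), of which 3 were members. The 3 were 1 Cbfb probe that was higher, where 4.93% of all probes were, and 1 probe each of Satb1 and Bcl11a that were lower, where 4.21% were. Of the 21 probes, 5 had log2 ratios below 0 on all 3 arrays, where 18% of all probes did, and 2 had ratios above 0 on all 3, where 16% did. The members' median absolute log2 ratio was 0.24, against 0.27 for all probes kept, and the median SD over arrays was 0.45, against 0.43. The probes thus moved by about the size and with about the spread of the array as a whole. Because the samples are bulk, fewer cells of a type and less RNA per cell cannot be told apart.

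**Figure D1:**
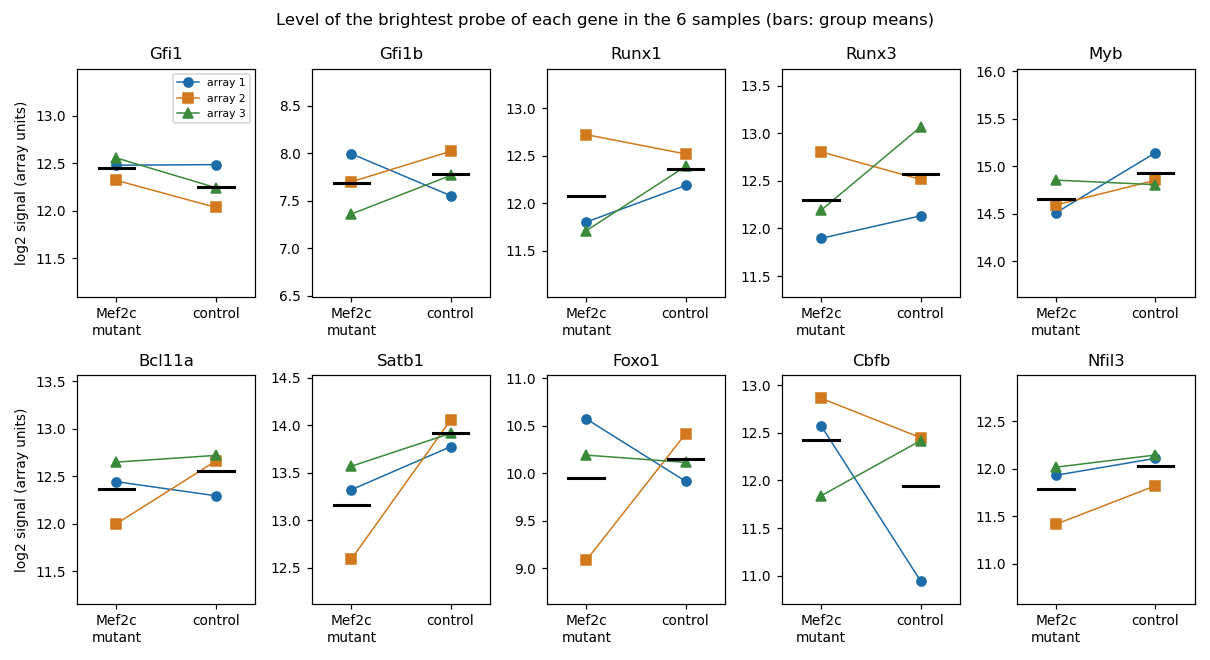
Log2 signal of the brightest probe of each of the 10 genes in the 3 Mef2c mutant samples (left) and the 3 control samples (right), with lines joining the samples of 1 array, bars at group means and the same span of log2 units on every vertical axis. For Satb1 the mutant samples, at 12.59 to 13.57, all lie below the controls, at 13.77 to 14.05, and for the other 9 genes the groups overlap.

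For Runx1 and Runx3, core binding factor genes, the SD between arrays exceeded the size of the mean log2 ratio at every probe. For Runx1, which encodes the DNA-binding subunit required for definitive blood formation, the brighter probe (D13802) had levels of 11.80, 12.72 and 11.71 in the mutants, against 12.19, 12.52 and 12.39 in the controls of arrays 1, 2 and 3. The mutant was lower on arrays 1 and 3 and higher on array 2, and the groups overlapped. The mean log2 ratio was -0.29 ± 0.45 (SD, n = 3; limma adjusted p = 0.712), and with array 2 turned it was -0.42. It was -0.53 without array 2 and -0.09 without array 3. The dimmer Runx1 probe (NM_009821) had log2 ratios of 0.01, 0.52 and -0.81, with a mean of -0.09 ± 0.67, and without array 3 this mean was 0.26.

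Runx3, whose product acts in CD8 T cells and natural killer cells, followed the same order of arrays. Its brighter probe had levels of 11.90, 12.81 and 12.19 in the mutants, against 12.13, 12.52 and 13.07 in the controls. The groups overlapped, and the highest sample of each was on a different array. The log2 ratios were -0.24, 0.29 and -0.87, with a mean of -0.27 ± 0.58 (limma adjusted p = 0.753) and of 0.03 without array 3. Its dimmer probe, which starts 646 bases away in the coordinates of the array design, had 0.64, 0.73 and -1.04, so both probes were high in the mutant on array 2 and low on array 3 but had opposite signs on array 1. The mean of the dimmer probe was 0.11 ± 0.998, and it was -0.38 with array 2 turned, -0.15 without array 1 and -0.20 without array 2.

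Cbfb, which encodes the subunit that stabilises RUNX proteins on DNA, was read by a pair of probes that differed in spread. The dimmer probe had levels of 11.28, 10.85 and 11.50 in the mutants, against 10.80, 10.33 and 10.86 in the controls. The mutant was higher on every array by a similar amount, although the ranges of the groups overlapped narrowly. The log2 ratios were 0.48, 0.52 and 0.65, a mean of 0.55 ± 0.09 (SD, n = 3; 95% interval 0.02 to 1.07), or 1.46-fold higher, with a limma adjusted p of 0.544. The brighter probe, 1786 bases away, had levels of 12.57, 12.86 and 11.84 in the mutants, against 10.95, 12.45 and 12.42 in the controls. Its lowest value by far was in the control sample of array 1, the one in which immediate early and late neutrophil genes were high, and the part of that sample's state in this value was not tested. Its mean log2 ratio was 0.49 ± 1.104, and -0.08 without array 1. With array 2 turned the means were 0.20 for the dimmer and 0.21 for the brighter probe.

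Gfi1 and Gfi1b, with 1 probe each, had mean log2 ratios of 0.20 and -0.10, and each changed in size or sign with array 2. Gfi1, a repressor that restrains stem cell cycling and favours granulocytes over monocytes, had levels of 12.48, 12.32 and 12.56 in the mutants, against 12.49, 12.04 and 12.24 in the controls. The samples of array 1 were nearly equal and the mutant was higher on arrays 2 and 3. The mean log2 ratio was 0.20 ± 0.18 (limma adjusted p = 0.763; 95% interval -0.35 to 0.74), 0.30 without array 1 and 0.01 with array 2 turned. Gfi1b had levels of 7.99, 7.70 and 7.36 in the mutants, against 7.55, 8.02 and 7.77 in the controls, with overlapping groups. Its mean log2 ratio of -0.10 ± 0.47 (limma adjusted p = 0.912) became 0.12 with array 2 turned, 0.02 without array 2 and 0.06 without array 3. Markers of the megakaryocytic lineage, where Gfi1b acts, had a median log2 ratio of -0.28 over 7 genes, and erythroid markers one of -0.07 over 7 genes, with 0 of the megakaryocytic and 2 of the erythroid genes, both lower, at an unadjusted p under 0.05. Over all genes, each read from its brightest kept probe, 4.58% were lower and 4.33% higher at that p. With array 2 turned the medians were -0.05 for the megakaryocytic and 0.04 for the erythroid markers. The part of these lineages in the Gfi1b value was not tested.

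Myb, which encodes a factor that keeps progenitors immature and dividing, was read by 4 probes that did not share a direction. The brightest, for NM_033597, had levels of 14.51, 14.59 and 14.85 in the mutants, against 15.14, 14.85 and 14.81 in the controls. Its log2 ratios were -0.63, -0.26 and 0.05, with a mean of -0.28 ± 0.34 (limma adjusted p = 0.696). That mean was -0.11 without array 1, -0.44 without array 3 and -0.11 with array 2 turned. A second, dimmer probe for the same transcript, 259 bases away, had log2 ratios of -0.27, -0.13 and 0.42, and so kept the order of the arrays. That probe was printed at 10 spots, of which 7, 7 and 10 were free of outlier flags on arrays 1, 2 and 3. The SD between those spots was 0.07, 0.06 and 0.08 log2 units within an array, against 0.37 between arrays. The first SD is that of repeat spots on 1 hybridisation, and the second also holds the differences between samples.

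The other probes of Myb gave other readings. The probe for NM_010848, 27418 bases from the repeated one, had log2 ratios of 0.18, 0.84 and -1.49, and the probe for AK036518 had 0.27, 0.11 and 0.00149. On array 3 the repeated probe and the NM_010848 probe differed by 1.91 log2 units, the widest gap among the 15 pairs of probes of a gene. The NM_010848 probe shared with both Runx1 probes and both Runx3 probes a highest ratio on array 2 and a lowest on array 3. Among the partners and relatives described below, Hipk2, Chd4, Rcor3, Tef and Ep300 had this order too, while others, such as Hlf, did not. The order is thus not particular to these members, and its share over all probes was not counted. The mean of the NM_010848 probe was -0.16 ± 1.1999, and 0.51 without array 3. The repeated probe's mean of 0.01 ± 0.37 became -0.09 and the AK036518 mean of 0.13 became -0.03 with median centring in place of loess, a scaling that moves the median of all probes to -0.15.

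**Figure D2:**
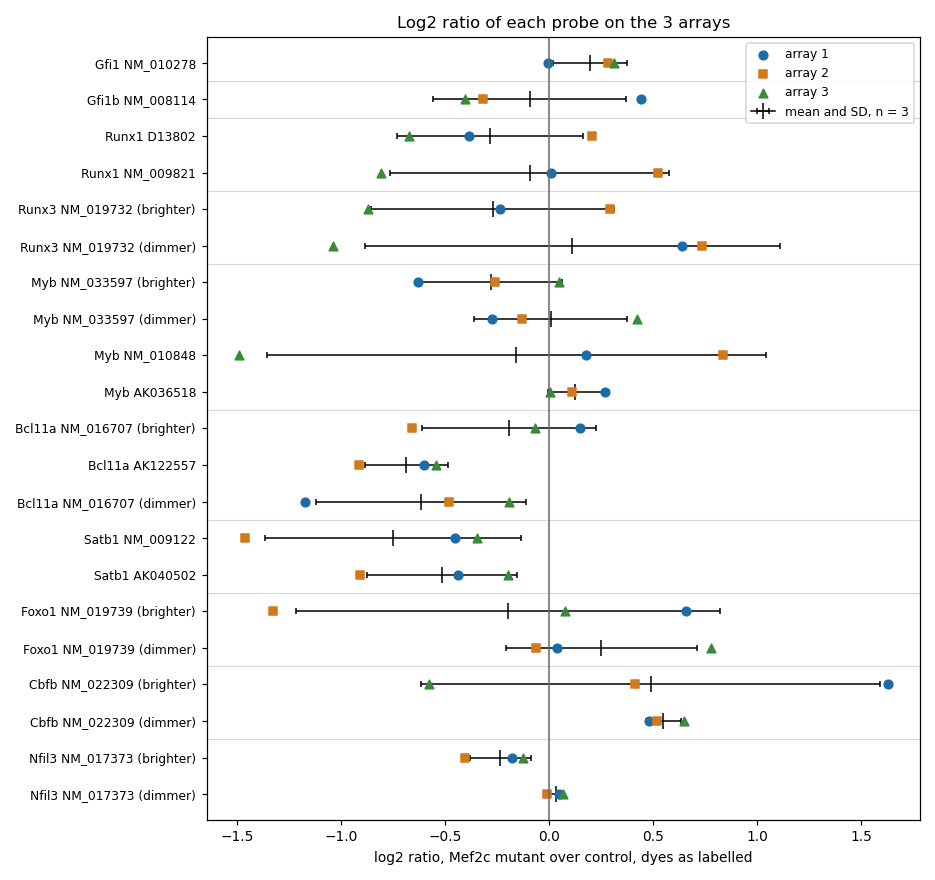
Log2 ratio of Mef2c mutant over control for each of the 21 probes on arrays 1, 2 and 3 (points, dyes as labelled), with the mean and SD (n = 3) as bars and probes grouped by gene. Both Satb1 probes, 2 of 3 Bcl11a probes and the brighter Nfil3 probe lie below 0 on every array. The dimmer Cbfb probe lies between 0.48 and 0.65 on every array, and Myb AK036518 lies above 0 on every array, by 0.00149 on array 3. Both Runx1 probes, both Runx3 probes and Myb NM_010848 have their lowest point on array 3.

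Satb1, which encodes a chromatin organiser needed for lymphoid priming of stem cells and for thymocytes, ran low in the mutant with both of its probes. The brighter probe (NM_009122) had levels of 13.32, 12.59 and 13.57 in the mutants, against 13.77, 14.05 and 13.91 in the controls. The controls lay close together and all mutants lay below them. The log2 ratios were -0.45, -1.46 and -0.35, a mean of -0.75 ± 0.62 (SD, n = 3; 95% interval -1.49 to -0.01), or 1.69-fold lower, and the limma adjusted p was 0.547. The largest difference was on array 2, and without that array the mean was -0.40.

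The dimmer Satb1 probe (AK040502) had levels of 7.76, 7.68 and 8.19 in the mutants, against 8.20, 8.60 and 8.39 in the controls. Its groups did not overlap either, and its log2 ratios of -0.44, -0.91 and -0.20 kept the order of the arrays. The mean was -0.52 ± 0.36 (limma adjusted p = 0.565), and -0.32 without array 2. Groups that do not overlap were found for 3 of the 21 member probes, all lower in the mutant, and for 17.4% of all probes (7.52% higher and 9.92% lower). With array 2 turned the means were 0.22 for the brighter and 0.09 for the dimmer probe, so the direction of Satb1 rests on the labelled dyes of that array. T and NK cell markers, of cell types that also express Satb1, averaged 8.87, 8.62 and 8.83 in the mutants, against 9.15, 9.34 and 9.16 in the controls, and 8 of 8 such genes had a mean log2 ratio below 0, as did 12140 of 22222 genes over the array, with 1 lower at an unadjusted p under 0.05, where 4.58% of all genes were. Of these 8 genes, 6 were well above background in every sample. The median log2 ratio of the 8 was -0.37 with the dyes as labelled and 0.05 with array 2 turned. The sort for lineage-negative cells is meant to leave out mature lymphocytes, and the part of any such cells in the Satb1 value was not tested.

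Across the 6 samples, the genes whose levels followed the brighter Satb1 probe most closely were Lockd, a noncoding RNA gene (Pearson's r = 0.994), Tgif2, which encodes a homeobox repressor (0.988), and Cxxc5, which encodes a CXXC zinc finger protein (0.987). They were picked from 15358 genes well above background in every sample. With 6 samples that share 3 arrays and 2 dyes, this describes likeness only.

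Bcl11a, which encodes a zinc finger factor required for B cells and for the lymphoid potential of progenitors, ran low in the mutant on every array with 2 of its 3 probes. The probe for AK122557 had levels of 11.30, 10.62 and 10.66 in the mutants, against 11.90, 11.54 and 11.20 in the controls. The mutant was the lower sample of each array, although the highest mutant was above the lowest control. The log2 ratios were -0.60, -0.92 and -0.55, a mean of -0.69 ± 0.20 (SD, n = 3; 95% interval -1.24 to -0.14), or 1.61-fold lower, with a limma adjusted p of 0.544.

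The other Bcl11a probes were for NM_016707 and start 269 bases apart. The dimmer had levels of 9.17, 8.83 and 9.30 in the mutants, against 10.35, 9.32 and 9.49 in the controls, and its groups just failed to overlap. Its mean log2 ratio was -0.62 ± 0.50 (limma adjusted p = 0.554), and without array 1, where the control was highest, it was -0.34. The brighter had 12.44, 12.00 and 12.65 in the mutants, against 12.29, 12.66 and 12.72 in the controls, with overlapping groups. Its mean was -0.19 ± 0.42 (limma adjusted p = 0.798), and it was 0.04 without array 2. On array 1 these neighbouring probes differed by 1.32 log2 units. With array 2 turned the means of the 3 probes were -0.08 (AK122557), -0.30 (dimmer) and 0.25 (brighter).

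Foxo1, a forkhead factor that turns on recombination and interleukin 7 receptor genes in lymphoid cells, was read by a pair of probes with opposite means. The brighter had levels of 10.57, 9.08 and 10.19 in the mutants, against 9.91, 10.41 and 10.11 in the controls. The mutant of array 2 was the lowest of the 6 and the mutant of array 1 the highest. The log2 ratios were 0.66, -1.33 and 0.08, with a mean of -0.20 ± 1.02 (limma adjusted p = 0.875), 0.69 with array 2 turned and 0.37 without array 2. The dimmer probe, 3106 bases away, had 0.04, -0.07 and 0.78, with a mean of 0.25 ± 0.46 (limma adjusted p = 0.751), and without array 3 it was -0.01.

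Nfil3, a basic leucine zipper factor needed for natural killer cells and other innate lymphoid cells, had mean log2 ratios of -0.24 and 0.03 at its brighter and dimmer probes. The brighter probe had levels of 11.93, 11.42 and 12.02 in the mutants, against 12.11, 11.82 and 12.14 in the controls. The mutant was the lower sample on each array while the groups overlapped. The mean log2 ratio was -0.24 ± 0.15 (limma adjusted p = 0.712; 95% interval -0.77 to 0.30), -0.15 without array 2 and 0.03 with array 2 turned. The dimmer probe, 284 bases away, had log2 ratios of 0.05, -0.01 and 0.06 and the smallest spread of the 21 probes, at 0.03 ± 0.04. With median centring its mean was -0.16.

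**Figure D3:**
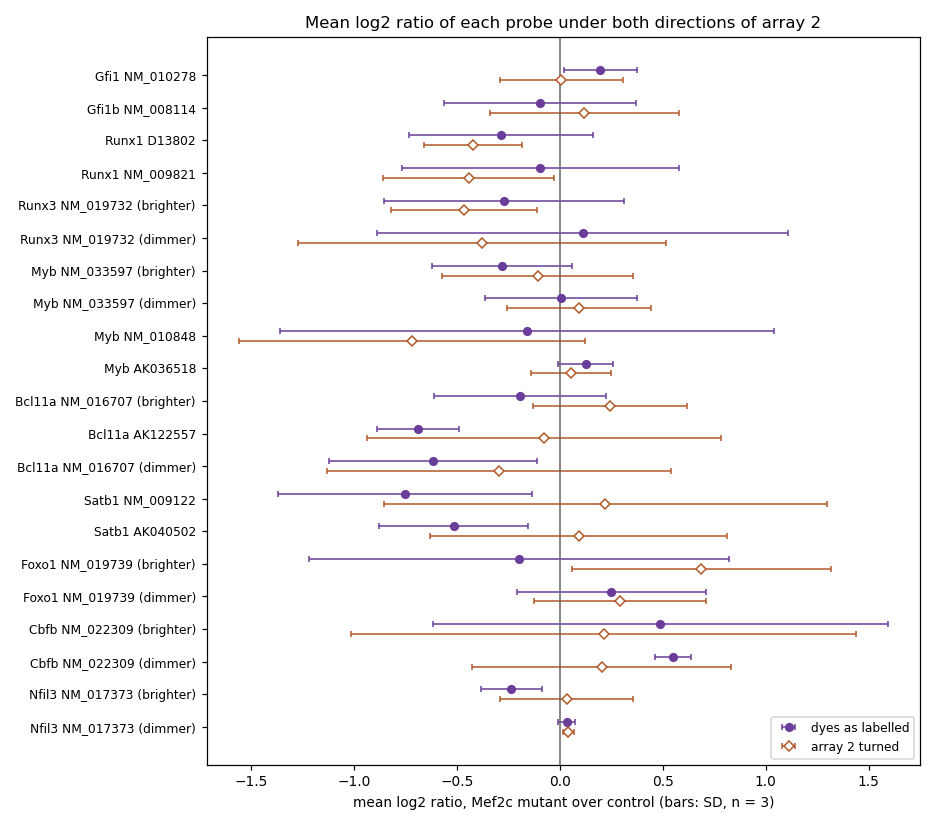
Mean log2 ratio of Mef2c mutant over control (bars: SD, n = 3) for each of the 21 probes with the dyes as labelled (filled circles) and with array 2 turned (open diamonds). With array 2 turned the means of Satb1 move above 0, to 0.22 and 0.09, those of both Runx1 probes move further below 0, to -0.42 and -0.44, and 13 probes lie above 0 and 8 below, against 8 above and 13 below as labelled.

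Probes of 1 gene shared the sign of the ratio in 27 of 45 comparisons of a probe pair on an array, over the 8 genes with more than 1 probe. The means of a pair had the same sign in 8 of 15 pairs. For 2 pairs the signs matched on all 3 arrays and in the mean, the Satb1 pair and the Bcl11a pair of AK122557 and the dimmer NM_016707 probe. With array 2 turned, the members at an unadjusted p under 0.05 numbered 0, where 3.36% of all probes were, and 0 without array 1 and without array 2, where 4.9% and 7.09% were. Without array 3 there was 1, Bcl11a AK122557, where 11.6% of all probes were. Median centring in place of loess gave 4, where 10.8% of all probes were. They were Bcl11a AK122557, a Bcl11a NM_016707 probe and both Satb1 probes. Without background correction there were 2, Bcl11a AK122557 and a Cbfb probe, where 9.06% of all probes were. The scanner's processed signals gave 2, Bcl11a AK122557 and Satb1 AK040502, where 8.65% were.

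Partners and relatives of the 10 regulators were described from a list of 34 genes, of which 33 were measured. By limma 0 passed at an adjusted p under 0.05, and at an unadjusted p under 0.05 there was 1 higher and there were 3 lower, where 4.33% of all genes were higher and 4.58% lower. The list's median log2 ratio was -0.13, against -0.04 for all genes, and it was 0.05 with array 2 turned. Mybl2, the MYB relative of dividing cells, had log2 ratios of 0.84, 0.87 and 0.72. Hlf, a stem cell factor that shares its DNA motif with Nfil3, had -1.52, -1.72 and -0.40. The corepressor gene Cbfa2t2 had -1.64, -0.59 and -0.85, a mean of -1.03 that was -0.31 over all its probes, and Foxo6 had -0.68, -0.44 and -0.50. These 4 genes were the ones with the smallest p among those that ran 1 way on all arrays. Their limma adjusted p was 0.544 for the first 3 and 0.547 for Foxo6. Turning array 2 gave 0.23 for Mybl2, -0.07 for Hlf, -0.63 for Cbfa2t2 and -0.25 for Foxo6, against 0.81, -1.21, -1.03 and -0.54 with the dyes as labelled.

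Known targets of the regulators were described from a list of 30 genes, of which 27 were measured. The list was not split by whether a regulator raises or lowers a gene, so its signed median is no measure of regulator activity. Kit, Cd34 and Flt3 are also among the sort and progenitor markers above. By limma 0 passed at an adjusted p under 0.05, while an unadjusted p under 0.05 was found for 5 genes, all lower in the mutant, where 4.58% of all genes were. The median log2 ratio was -0.41, against -0.04 for all genes, with -0.43, -0.27 and 0.14 on arrays 1, 2 and 3, and it was -0.28 without array 1 and -0.20 with array 2 turned. Flt3, a cytokine receptor gene that also marks lymphoid-primed MPPs, had a mean log2 ratio of -1.15 ± 0.12 and the recombinase gene Rag1 one of -1.39 ± 0.70 (SD, n = 3), which was -0.76 over all its probes. The FOXO targets Sesn1, a stress-induced sestrin gene, and S1pr1, which encodes a receptor for lymphocyte egress, had -0.82 ± 0.18 and -0.75 ± 0.15. The fifth gene was Hoxa9, a progenitor homeobox gene that the naming rule did not pick and that was added with its values known. It had log2 ratios of -0.94, -0.70 and -0.60. These 5 means, with array 2 turned, were -0.32 for Flt3, -0.74 for Rag1, -0.23 for Sesn1, -0.19 for S1pr1 and -0.28 for Hoxa9. The list also holds Egr1 and Egr2, immediate early genes that were high in the control of array 1, with log2 ratios of -6.11 and -3.69 on that array.

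**Figure D4:**
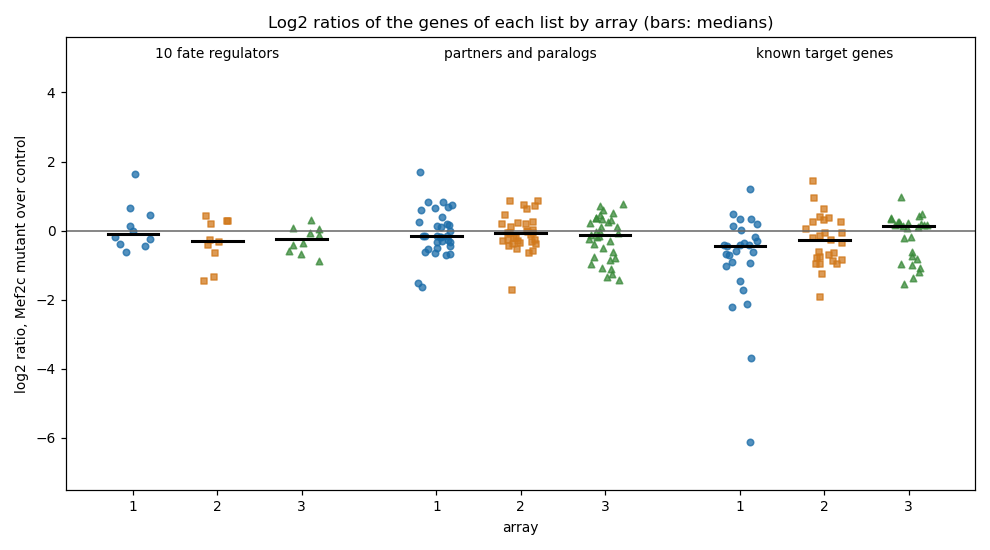
Log2 ratio of Mef2c mutant over control by array for the brightest probe of each gene, for the 10 regulators, 33 measured partners and paralogs and 27 measured target genes (points: genes; bars: medians). The medians of the targets are -0.43, -0.27 and 0.14 on arrays 1, 2 and 3, and the points far below 0 on array 1 are Egr1 at -6.11 and Egr2 at -3.69.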

How the data were processed

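Per the labels' protocols, mRNA of sorted cells was amplified by PCR (SuperAmp), and each dye labelled 250 ng of the product. Amplification can distort single transcripts. Per the file headers, Feature Extraction 9.5.1.1 (Agilent) wrote the intensity of each spot as mean foreground and median local background. Per the file headers it also wrote processed signals and their log10 ratio, Cy5 over Cy3. The authors' deposited table holds log2 ratios, made with limma per the submitters' processing notes, with normalization not given in the sources used here. Its filled entries were matched to spots in order, with a correlation of at least 0.923 in size in each block of 1000 spots.

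Intensities were corrected with normexp (offset 50) and loess in limma 3.58.1 (R 4.3.3). Control spots had weight 0 and were dropped, as were outlier spots (300, 331 and 252 on arrays 1, 2 and 3), and spots of a probe were averaged. Levels were also scaled with Aquantile. A probe was kept (32909) if it was measured on 2 or more arrays and 1 channel was well above background on 2 or more. Ratios were tested against 0 with lmFit and eBayes, adjusted over all kept probes. Each list gene was read from its brightest kept probe. Of each list the 4 genes with the smallest p among those running 1 way on all arrays were named, and likeness used the member whose brightest probe had the smallest p among the brightest probes. The share of probes well above background ran from 73.4% to 80.4% per channel, and 0 spots were saturated. Correlations of ratios across probes were 0.29 for arrays 1 and 2, 0.10 for arrays 1 and 3 and -0.01 for arrays 2 and 3. These follow the labelled dyes, and turning array 2 changes the sign of those that involve it. Probe positions come from the array design, whose build was not given in the sources used here, and only distances are printed. The members and lists were chosen with earlier results of these data known.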

Additional observations from a re-analysis of the deposited data

How the results depend on the processing

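Under the alternatives, 355 values of single probes, or of the mean over a gene's probes, were recomputed. Of these, 323 kept their sign and their side of the threshold and 32 changed sign. The 323 include values whose sign could not change. Other filters on dim probes and the use of 1 probe per gene leave a probe's log2 ratio as it is. Keeping outlier spots moved only the repeated Myb probe. In none did a probe pass, and 0 probes over the whole array passed under any alternative. Turning array 2 gave 0.12 for Gfi1b, -0.38 for the dimmer Runx3 probe, 0.25 for the brighter Bcl11a probe, 0.22 and 0.091 for Satb1, 0.69 for the brighter Foxo1 probe and 0.033 for the brighter Nfil3 probe. The authors' deposited table as deposited gave 0.084, -0.38, 0.25, 0.22 and 0.11, 0.70 and 0.034 for the same probes. Median centring gave -0.090 for the repeated Myb probe, -0.027 for Myb AK036518 and -0.16 for the dimmer Nfil3 probe, and the scanner's processed signals gave -0.092 for the repeated Myb probe and -0.10 for that Nfil3 probe. The mean of the probes of Foxo1 was 0.025.

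Leaving out 1 array at a time gave ranges of -0.36 to 0.060 for Gfi1b, -0.40 to 0.26 for Runx1 NM_009821, -0.55 to 0.027 and -0.20 to 0.69 for the brighter and dimmer Runx3 probes, -0.20 to 0.15 for the repeated Myb probe, -0.66 to 0.51 for Myb NM_010848, -0.36 to 0.039 for the brighter Bcl11a probe, -0.63 to 0.37 and -0.014 to 0.41 for the brighter and dimmer Foxo1 probes and -0.083 to 1.02 for the brighter Cbfb probe. The number of probes at an unadjusted p under 0.05 was 1106 (469 higher, 637 lower) with array 2 turned, 1096 with the authors' deposited table and 1613 to 3812 without 1 array. It split as 801 higher and 2743 lower with median centring and 1031 and 1814 with processed signals, against 1623 and 1384 with loess. The median of the partners was 0.052 with array 2 turned and 0.054 with the authors' deposited table, -0.26 with median centring, -0.19 with processed signals, -0.049 when the probes of a gene were averaged and -0.14 to -0.086 without 1 array. The cause of these shifts was not tested. The test of ratios against 0 is itself paired by array, so no further paired analysis was added. Also, a slide block could not be fitted because all arrays lay on 1 slide.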
